A study of Drosophila melanogaster with 6 samples.

Results

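Superoxide, peroxide and thioredoxin defence genes of the fruit fly were compared between an old age group (45 days) and a young age group (3 days) of whole flies. The genes were chosen by symbol, by a rule that sets no threshold on measured values: the superoxide dismutases Sod (now Sod1), Sod2 and Sod3, the copper chaperone Ccs, the catalase Cat, the peroxiredoxins Jafrac1 and Jafrac2, the thioredoxin Trx-2 and the thioredoxin reductase Trxr-1. The choice was made with earlier results of these data known. These 9 genes had 10 probe sets among the 18769 tested, since Sod3 had a pair of them and every other gene had 1. Flies of both age groups were of the isogenic y(1), w67c23(2) stock, kept at 20 °C, and each array was made from a pool that the labels give as 100 females and 100 males. The study took 3 biological replicates per age group, which gave 6 Affymetrix GeneChip Drosophila Genome 2.0 arrays, and the number of arrays limits the precision. The deposited table numbers its old columns 4 to 6, so the arrays are called Old4, Old5 and Old6, and Young1, Young2 and Young3.

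Superoxide is a by-product of respiration and of NADPH oxidases. Superoxide dismutases turn it into hydrogen peroxide, in the cytosol by the copper- and zinc-dependent Sod, in the mitochondrial matrix by the manganese-dependent Sod2, and outside the cell by Sod3. Catalase breaks hydrogen peroxide down in peroxisomes, and peroxiredoxins reduce it with electrons from thioredoxin, which thioredoxin reductase renews with NADPH. Flies have no glutathione reductase, so this reductase also keeps glutathione reduced.

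Values are log2 signals after GCRMA, a normalization that corrects the background with the probe sequence and brings arrays to a common distribution. They ran from 1.51 to 15.05 over the probe sets tested, and 56% of them lay under log2 4, near the floor of the scale. The medians of the 6 arrays spanned 0.0213. Marker genes of the testis (3 genes) and of the male accessory gland (2 genes) stayed at or under 2.40 in every array of both age groups. The 3 female germline markers lay between 12.63 and 14.55 by their brightest probe sets, though a dim probe set of bcd lay between 2.40 and 4.82. The males named in the labels were therefore not seen in these markers, and the study's own results text speaks of females. The testis thioredoxin TrxT was likewise at 2.40 ± 0.01 in old flies and 2.41 ± 0.02 in young flies (SD, n = 3 each), and the female germline thioredoxin dhd was at 14.33 ± 0.03 in old and 14.32 ± 0.03 in young flies. Of the 3 neuron markers only elav reached log2 4, at 4.09 in Old5.

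Of the 9 genes, 2 were lower and 1 was higher in old flies. Sod3 fell by 0.60 or 1.57 on the log2 scale, depending on the probe set, and Sod2 fell by 0.65. Cat rose by 0.42. The cytosolic Sod, its chaperone Ccs, both Jafrac genes, Trx-2 and Trxr-1 did not pass the test, and the difference between their group means was at most 0.18 on the log2 scale.

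Each probe set was tested with limma's moderated test over all probe sets, and p was adjusted by the Benjamini-Hochberg method. The study asked for more than a 2-fold difference together with p under 0.05 and FDR under 15%. By these criteria 1 of the 10 probe sets was called, lower, namely 1622906_at of Sod3, against 6.41% of all probe sets tested, 3.45% higher and 2.96% lower. At an adjusted p under 0.05 with no fold criterion, 4 of 10 were called, 3 lower and 1 higher. Over all probe sets tested this share was 12.7%, 6.91% higher and 5.82% lower. Bright probe sets, whose mean reached log2 10 in at least 1 age group, numbered 6019 and included 9 of the 10 members. Among them 27.0% were called at an adjusted p under 0.05, 14.6% higher and 12.4% lower, and 9.05% by the criteria of the study. Old and young values stayed apart in 6 of the 10 member probe sets, against 28.7% of all and 54.2% of the bright ones. Without Old5, 2 of the 10 remained at an adjusted p under 0.05, the pair of Sod3.

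**Figure D1:**
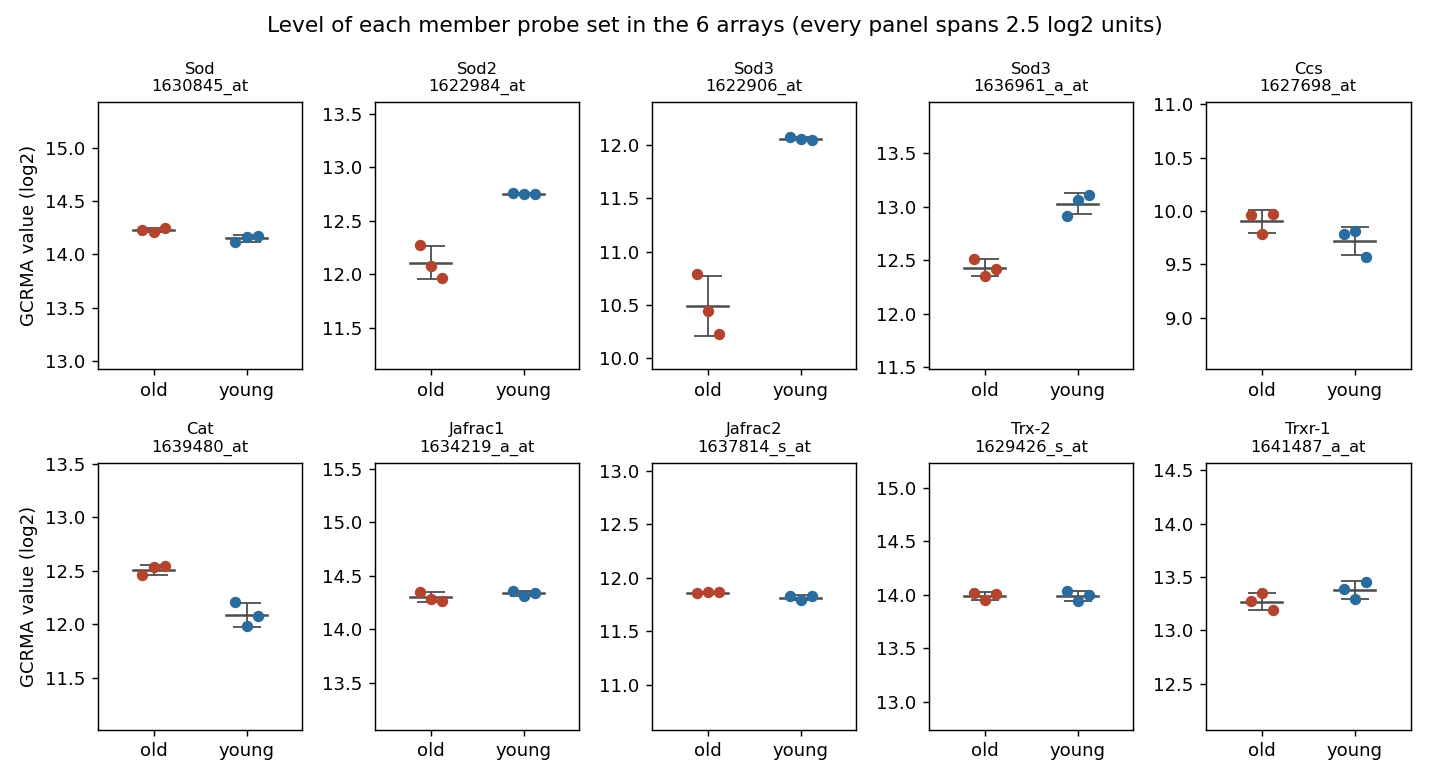
GCRMA value (log2) of each of the 10 member probe sets in the 3 old (red, left) and 3 young (blue, right) arrays, with horizontal bars for the group mean and whiskers for 1 SD. Every panel spans the same range, so that the gap of 1622906_at of Sod3 can be set against the near overlap in Sod, Jafrac1, Jafrac2 and Trx-2.

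Sod (FBgn0003462), the cytosolic enzyme, had values of 14.23, 14.21 and 14.24 in Old4, Old5 and Old6, against 14.11, 14.17 and 14.17 in Young1, Young2 and Young3. All old values lay just above all young values. The difference was 0.07 ± 0.02 (SE) on the log2 scale, a 1.05-fold difference with a 95% interval of 1.01 to 1.09, and it did not pass (adjusted p = 0.111, limma).

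Ccs (FBgn0010531) delivers copper to the cytosolic dismutase. It stood at 9.96, 9.78 and 9.97 in Old4 to Old6, against 9.78, 9.81 and 9.57 in Young1 to Young3. The groups overlapped through Old5, and the difference of 0.18 ± 0.09 (SE) did not pass (adjusted p = 0.327, limma). Its 95% interval, -0.05 to 0.42, was the widest among the members that did not pass.

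Sod2 (FBgn0010213), the mitochondrial enzyme, had values of 12.28, 12.08 and 11.97 in Old4, Old5 and Old6, against 12.76, 12.75 and 12.75 in Young1, Young2 and Young3. The young arrays lay within 0.0111 of each other, while the old arrays were spread over 0.31, all of them under the young ones. Sod2 fell by 0.65 ± 0.08 (SE) on the log2 scale and was 1.56-fold lower in old flies, with a 95% interval of 1.35 to 1.81 (adjusted p = 0.0112, limma). It stayed below the 2-fold criterion. Without Old5 the adjusted p was 0.053 at a difference of -0.63.

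Sod3 (FBgn0033631), the extracellular enzyme, is measured by a brighter probe set, 1636961_a_at, and a dimmer one, 1622906_at. In Affymetrix names, the ending a_at marks probe sets that match several transcripts of a single gene. By 1636961_a_at, values were 12.51, 12.35 and 12.42 in Old4, Old5 and Old6, against 12.92, 13.06 and 13.11 in Young1, Young2 and Young3. By 1622906_at they were 10.79, 10.45 and 10.23 in Old4, Old5 and Old6, against 12.07, 12.05 and 12.04 in Young1, Young2 and Young3. With both probe sets every old array was under every young array, and the old arrays of 1622906_at were the most scattered of all member groups (SD 0.28).

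By 1636961_a_at, Sod3 was 1.52-fold lower in old flies, with a 95% interval of 1.34 to 1.71 (adjusted p = 0.008, limma). By 1622906_at it was 2.96-fold lower, with an interval of 2.27 to 3.87 (adjusted p = 0.00536, limma). The difference between the probe sets in their change was 0.97 on the log2 scale. Within arrays the distance between them did not overlap between old and young, and an exact two-sided permutation test gave p = 0.1, the smallest that 3 against 3 arrays allow. This pair was chosen after its values were seen. Averaged over both probe sets, Sod3 fell by 1.08 on the log2 scale (adjusted p = 0.00394, limma) and was 2.12-fold lower.

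Cat (FBgn0000261), the peroxisomal catalase, had values of 12.46, 12.53 and 12.54 in Old4, Old5 and Old6, against 12.21, 11.98 and 12.07 in Young1, Young2 and Young3. All old arrays were above all young arrays, and the young arrays were the more scattered. Cat rose by 0.42 ± 0.06 (SE), a 1.34-fold difference with a 95% interval of 1.19 to 1.50 (adjusted p = 0.0181, limma). The call was lost without Old5 (adjusted p = 0.0761), without Old6 (0.0818) and without Young3 (0.0606), at a difference of 0.41 each time. The methods' t-test gave an adjusted p of 0.0499.

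Jafrac1 (FBgn0040309, now Prx2), the cytosolic peroxiredoxin, stood at 14.35, 14.28 and 14.26 in Old4 to Old6, against 14.36, 14.31 and 14.34 in Young1 to Young3. The groups overlapped, and the difference was -0.04 with a 95% interval of -0.11 to 0.04 (adjusted p = 0.652, limma). Jafrac2 (FBgn0040308, now Prx4), the secretory pathway peroxiredoxin, stood at 11.85, 11.87 and 11.86 in Old4 to Old6, against 11.83, 11.79 and 11.83 in Young1 to Young3. Its groups did not overlap, though the difference was 0.05 with an interval of 0.01 to 0.08 (adjusted p = 0.114, limma). The far end of the interval was a 1.08-fold lower level for Jafrac1 and a 1.06-fold higher level for Jafrac2 in old flies.

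Trx-2 (FBgn0040070), the main cytosolic thioredoxin, had values of 14.01, 13.95 and 14.00 in Old4, Old5 and Old6, against 14.03, 13.94 and 14.00 in Young1, Young2 and Young3. Old and young values covered nearly the same range. The difference was -0.0027 on the log2 scale, with a 95% interval of -0.08 to 0.08 (adjusted p = 1, limma). Trxr-1 (FBgn0020653), the reductase that renews thioredoxin, stood at 13.28, 13.35 and 13.19 in Old4 to Old6, against 13.39, 13.29 and 13.46 in Young1 to Young3. Its groups overlapped, and the difference of -0.11, with an interval of -0.27 to 0.05, did not pass (adjusted p = 0.43, limma).

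**Figure D2:**
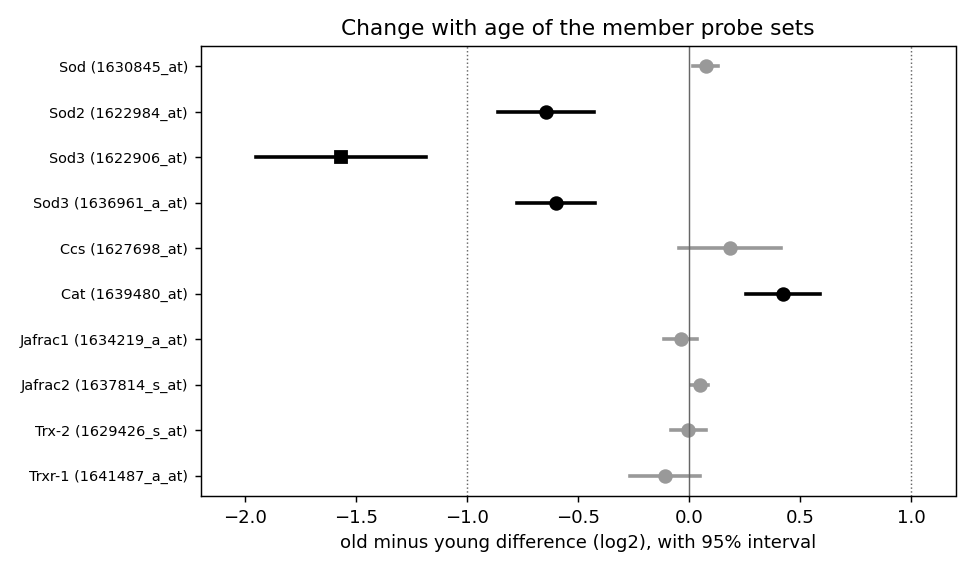
Old minus young difference (log2) of each member probe set with its 95% interval from limma. Black marks have an adjusted p under 0.05, the square is the probe set that also passed the 2-fold criterion, and dotted lines mark a 2-fold difference. Sod2 and Sod3 lie left of 0, Cat lies right of it, and the other members lie between -0.11 and 0.18.

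Whether related members differed in their change was asked for 6 pairs, as the difference between their brightest probe sets within each array. The change of Sod3 lay 0.67 below that of Sod on the log2 scale. The change of Sod2 lay 0.72 below that of Sod, and the change of Cat lay 0.35 above it. In these 3 pairs and in Jafrac2 relative to Jafrac1, where the difference was 0.08, old and young arrays did not overlap and the exact permutation test gave p = 0.1 (0.15 after Benjamini-Hochberg adjustment over the 6 pairs). With 3 against 3 arrays that test cannot go lower. In Ccs relative to Sod (0.11, exact permutation p = 0.5) and in Trxr-1 relative to Trx-2 (-0.10, exact permutation p = 0.3) the groups overlapped. Sod2 and Cat, a pair added after the values were seen, differed by 1.07 in their change, with no overlap (exact permutation p = 0.1).

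RNA of whole flies mixes all tissues, and fewer cells of a type cannot be told apart from less RNA per cell. The 3 flight muscle markers (Act88F, fln and TpnC4) were all called lower in old flies by the criteria of the study, though none had an adjusted p under 0.05 by limma or by the methods' t-test, and 3 had an unadjusted p under 0.05. Their summed level was 13.79, 11.12 and 10.72 in Old4, Old5 and Old6 on the log2 scale, against 15.21 to 15.52 in the young arrays. The 3 general muscle markers were also all called lower, with summed levels of 14.19 to 14.58 in old and 15.51 to 15.60 in young arrays. The 3 eggshell markers were scattered in old flies, at 14.29, 12.46 and 6.20 in Old4, Old5 and Old6, against 15.44 to 15.45 in the young arrays, and limma called none of them, with 1 of 3 at an unadjusted p under 0.05 and none at an adjusted p under 0.05 by the methods' t-test. Old4, the array with the highest sums of these markers among the old, was also the highest of the old arrays in Sod2 and in both probe sets of Sod3. This order was not particular to muscle and eggshell. Midgut sums were 14.90, 14.81 and 14.67 in Old4, Old5 and Old6. In the fat body, Old6 had the highest sum among the old, at 15.00. In Cat, which rose, Old4 was the lowest of the old arrays and so the nearest to the young ones. Old4 was also the lowest of the old arrays in Prx6005 and Sesn, which were lower in old flies and are described below. The part of these tissues in the fall of Sod2 and Sod3 was not tested. Summed levels were 15.35 to 15.43 in old and 15.32 to 15.45 in young arrays for the female germline, 14.89 to 15.00 and 15.08 to 15.47 for the fat body, and 14.67 to 14.90 and 14.90 to 15.08 for the midgut. Sums are carried by the brightest genes, and single markers of the fat body and the midgut moved further. In the female germline, bcd was 1.15-fold higher in old flies by its brightest probe set (adjusted p = 0.0446, limma). A dim probe set of bcd was at 4.41 in old and 3.08 in young flies. It was called higher by the criteria of the study (adjusted p = 0.0936, limma). The markers osk and nos did not pass. In the fat body, the criteria of the study called Fbp2 lower, by 111-fold. They also called the probe set of Fbp1 alone lower, by 48.6-fold, and both were near log2 2 in old flies. The brighter probe set counted for Fbp1 also names CG5335 and carries a FlyBase identifier other than that of Fbp1 alone. It was 1.31-fold higher in old flies (adjusted p = 0.0145, limma). Yp1 was 1.16-fold lower (adjusted p = 0.0385, limma), and Lsp2 was 4.61-fold lower but did not pass (adjusted p = 0.265, limma). In the midgut, Vha100-4 was called lower, by 4.27-fold, and Mal-A1 was 1.85-fold higher (adjusted p = 0.0403, limma). Jon65Aiii was 1.39-fold lower by its brightest probe set (adjusted p = 0.00741, limma). A dimmer probe set that also names CG6484, and carries another FlyBase identifier, was called higher, by 3.08-fold (adjusted p = 0.00377, limma). Jon25Bi was 5.82-fold lower but did not pass (adjusted p = 0.16, limma). For photoreceptors, the sums were 14.06 to 14.17 in old and 13.59 to 13.90 in young arrays. For hemocytes, they were 7.85 to 8.56 and 7.44 to 7.86, and Hml was the only marker to reach log2 4.

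**Figure D3:**
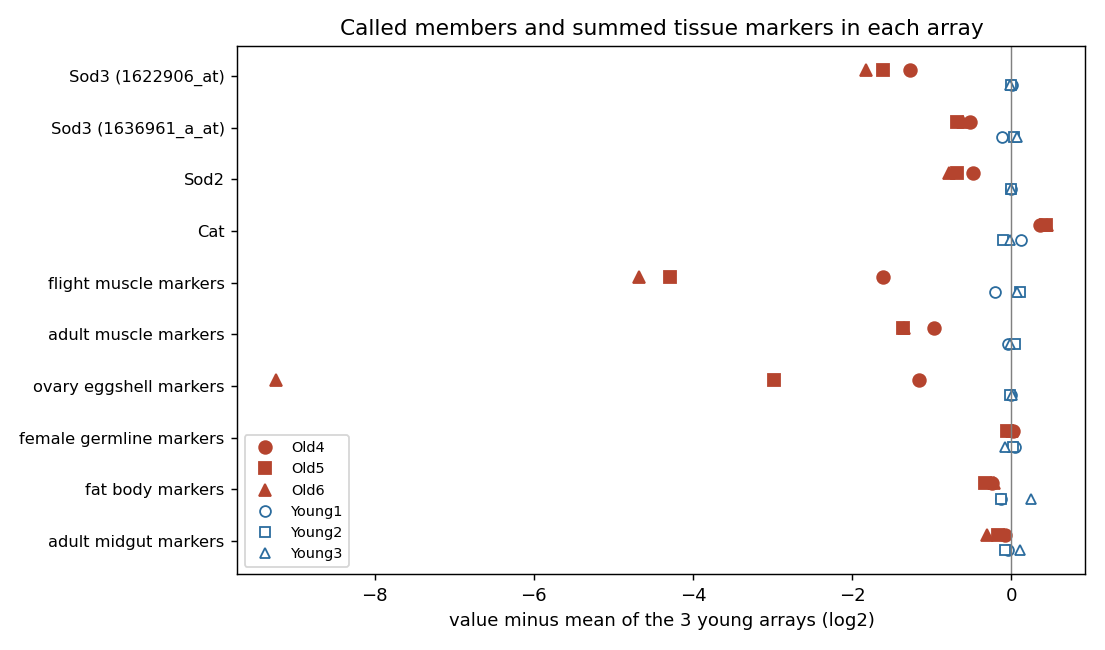
Level in each array minus the mean of the 3 young arrays (log2) for the probe sets of Sod3, Sod2 and Cat and for the summed markers of 6 tissues. Filled red marks are old arrays and open blue marks are young arrays, with 1 shape per replicate. Among the old arrays, Old4 lies closest to the young ones in flight muscle, general muscle, eggshell and midgut markers. The same holds for Sod2, Sod3 and Cat, while in fat body markers Old6 lies closest.

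Around these members, 56 further entries of related function were on the array, each a gene or a set of genes sharing a probe set. They came from lists of the same enzyme families, of glutathione and methionine sulfoxide reduction, of NADPH supply, of oxidant producers and of redox regulators. Prx2540-2 was counted on its own and again with Prx2540-1 and CG12896, by the probe set they share. By the criteria of the study, 1 was called higher and 3 lower, at a background of 6.41% of all probe sets tested and 9.05% of the bright ones. At an adjusted p under 0.05, 5 were higher and 8 lower, which is 23.2% of their brightest probe sets, against the shares of 12.7% and 27.0% given above. This count was 5 without Old5, 6 without Old6 and 8 without Young3. The calls of Irc, Sesn, CG6762 and park held with each array left out in turn, while each of the other 9 was lost with at least 1 array left out, at adjusted p values up to 0.149. Of 14 alternative settings run for each, PHGPx kept an adjusted p under 0.05 in 2, Prx5 in 4 and CG3719 in 5. Pxt and Men kept it in 6, and Prx6005 and Pxn in 7. In 17 of the 56, both group means of the brightest probe set were under log2 4. The median difference of the brightest probe sets was -0.0019, and that of all probe sets tested was 0.0008.

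Among catalases and heme peroxidases, Irc, the immune-regulated catalase of the gut, rose. It was at 13.53 ± 0.06 in old and 12.68 ± 0.16 in young flies (SD, n = 3 each), a 1.80-fold difference (adjusted p = 0.00689, limma). Pxt, a peroxidase of the ovary, fell by 0.25 on the log2 scale (adjusted p = 0.0297). Pxn, a peroxidase of the extracellular matrix, was called lower and stood at 4.80 ± 0.26 in old and 6.10 ± 0.30 in young flies (adjusted p = 0.022). With values under log2 6 raised to 6 its difference shrank to -0.16 and the call ended (adjusted p = 0.411), and by the methods' t-test the adjusted p was 0.0585. Another probe set of Pxn was near log2 2 in both groups. The related catalase CG9314 (now CatB) was near log2 2 in all arrays.

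In the peroxiredoxins, Prx6005 (now Prx6a), of the type with a single active cysteine, was 1.81-fold lower, at 9.21 ± 0.26 in old and 10.06 ± 0.14 in young flies (adjusted p = 0.0297, limma). Prx5 fell by 0.18 (adjusted p = 0.0417), by a probe set it shares with CG7215. The mitochondrial Prx3 did not pass, with a difference of 0.03 and a 95% interval of -0.05 to 0.11. The probe set shared by Prx2540-1, Prx2540-2 and CG12896 was at 13.18 ± 0.01 in old flies and more scattered in young flies, at 12.74 ± 0.43 (adjusted p = 0.373). These genes cannot be told apart on it. A probe set of Prx2540-2 alone was at 13.45 ± 0.05 in old and 13.17 ± 0.31 in young flies (adjusted p = 0.444).

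CG6762 (now Srx), the sulfiredoxin that repairs overoxidised peroxiredoxins, was called higher. It was dim, at 4.36 ± 0.17 in old and 2.54 ± 0.33 in young flies, and the call ended once values under log2 4 were raised to 4 (adjusted p = 0.138, limma). Sesn, the sestrin, fell by 0.31 (adjusted p = 0.00897), and PHGPx (now Gtpx), a glutathione peroxidase homolog, rose by 0.12 (adjusted p = 0.039). The call of PHGPx was lost with each array left out in turn and by the methods' t-test (adjusted p = 0.0805). In the thioredoxin family, CG3719 rose by 0.22 (adjusted p = 0.0466) and was the only one of 10 genes to pass. Trxr-2, the other reductase, was near log2 2 in all arrays.

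Limma called none of the 7 genes of glutaredoxin and glutathione synthesis and none of the 2 methionine sulfoxide reductases at an adjusted p under 0.05. At an unadjusted p under 0.05 there were 3 and 2, and by the methods' t-test with adjustment there were 0 and 0. Gclc, the catalytic subunit of the enzyme that starts glutathione synthesis, was at 12.87 ± 0.05 in old and 12.73 ± 0.06 in young flies (adjusted p = 0.125). Among NADPH suppliers, malic enzyme (Men) fell by 0.43 (adjusted p = 0.0199).

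Of the genes that make oxidants, Nox, an NADPH oxidase that produces superoxide, was 4.72-fold lower, with a 95% interval of 2.69 to 8.30 (adjusted p = 0.0141, limma). Without Old5 the adjusted p was 0.0593 at a difference of -2.27, and without Young2 it was 0.0518 at -2.28, while the call by the criteria of the study held in all 14 alternatives run for it. Nox stood at 7.39, 6.90 and 6.23 in Old4, Old5 and Old6, against 9.25, 8.99 and 8.99 in Young1, Young2 and Young3. Old4 was the old array nearest to the young ones. Not all genes with a lower mean in old flies shared this order. In Prx6005, Sesn and Duox, Old4 was the lowest of the old arrays, at 8.94, 12.73 and 11.87, and so the farthest from the young ones. A further probe set of Nox was near log2 2 throughout. Duox, the dual oxidase, was at 11.94 ± 0.07 in old and 12.35 ± 0.17 in young flies and did not pass (adjusted p = 0.0632).

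Among regulators, the stress kinase p38a rose by 0.73 (adjusted p = 0.0112, limma), with an adjusted p of 0.0521 without Old5, at a difference of 0.72, and of 0.0504 without Old6, at a difference of 0.68. The ubiquitin ligase gene park was called lower, at 1.94 ± 0.07 in old and 3.85 ± 0.20 in young flies, both means under log2 4, and this call ended when such values were raised to 4 (adjusted p = 0.419). Keap1, the inhibitor of the antioxidant regulator cnc, was at 9.98 ± 0.08 in old and 9.39 ± 0.24 in young flies (adjusted p = 0.0555), and cnc was not called by either of its probe sets.

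**Figure D4:**
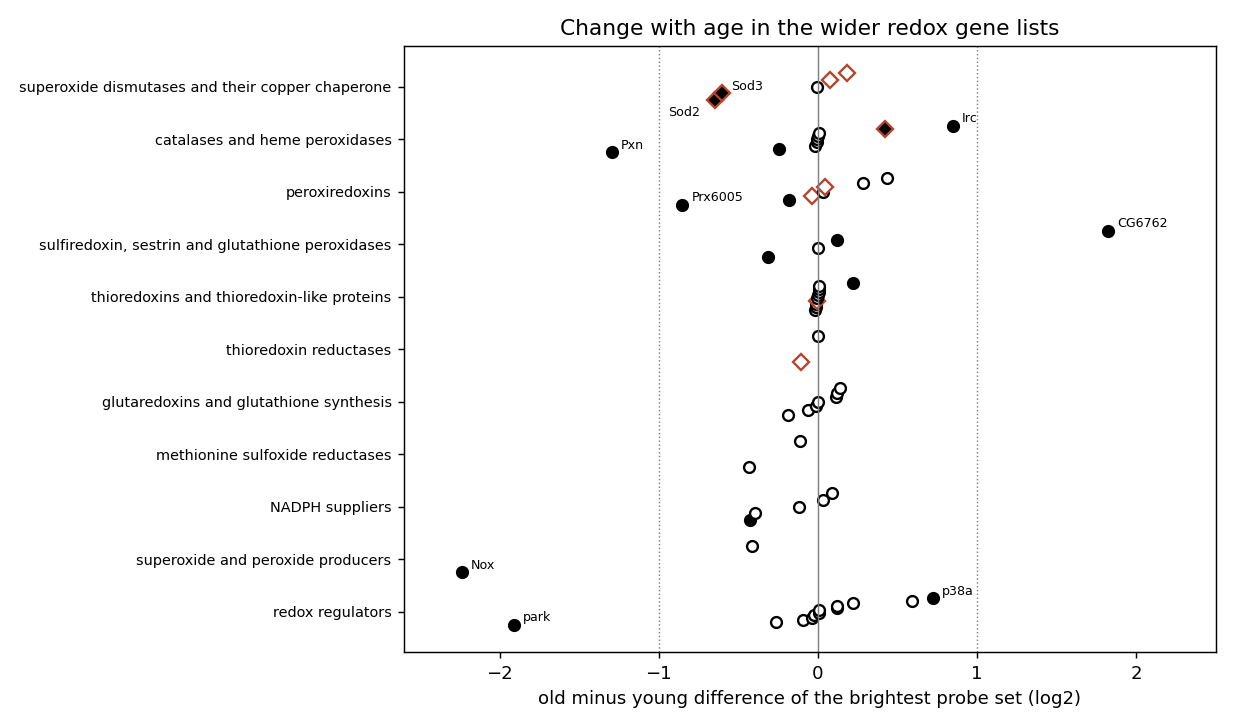
Old minus young difference (log2) of each gene, by list, from its brightest probe set. Diamonds are the 9 members, circles are other genes, filled marks have an adjusted p under 0.05, and dotted lines mark a 2-fold difference. Nox, park, Pxn and CG6762 lie beyond the dotted lines, and most other genes lie close to 0.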

How the data were processed

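Total RNA of whole flies was amplified and hybridized to GeneChip Drosophila Genome 2.0 arrays, in biological replicates according to the methods. The authors normalized the scans with GCRMA in Partek (version 6.5), and the deposited table holds 1 log2 value per probe set and array. Only this table was used, so the background correction could not be varied. It names no genome build, and no positions are given.

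Control probe sets (183) were dropped, and the other 18769 were fitted in R 4.3.3 with limma 3.58.1, with age as the only term. The methods name SAM, which was not run, and a t-test, which was run as an alternative. Errors are the SD of 3 arrays or limma's SE. The labels give no batch. Where a gene had several probe sets, the brightest stands for it. All members and all their probe sets are named, and in the wider lists every gene called by either threshold, with a few relatives chosen after their values were seen. Of 87 listed symbols, which include older and newer names, 66 were on the array. Gs1l was left out of the glutathione list as it is not such a gene. Current names come from RefSeq, where all 66 matched. Marker sums are the log2 of summed linear values over the brightest probe sets. The one counted for Fbp1 in the fat body list is shared with CG5335 and carries FBgn0034365, whereas the probe set of Fbp1 alone carries FBgn0000639. Members and lists were chosen with earlier results of these data known.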

Additional observations from a re-analysis of the deposited data

How the results depend on the processing

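Settings tried were the methods' t-test, a stricter FDR of 0.05, array weights, a trended robust prior, centring on medians, a renewed quantile normalization, a dim filter at log2 6, floors at log2 4 and log2 6, each array left out, and averaged probe sets. Under all 16, 1 member probe set was called by the criteria of the study. Array weights in limma brought Sod (difference 0.0598, adjusted p = 0.0492) and Jafrac2 (difference 0.0676, adjusted p = 0.0183) under an adjusted p of 0.05. The floor at log2 6 took Cat (difference 0.42, adjusted p = 0.0525, limma) out. The difference of Trx-2 changed sign with array weights (0.042) and with quantile normalization (0.041), and Jafrac2 relative to Jafrac1 moved to 0.044 with quantile normalization. With an array left out, differences ran from -0.73 to -0.57 for Sod2, from 0.37 to 0.48 for Cat and from -0.027 to 0.018 for Trx-2, and the members at an adjusted p under 0.05 numbered 2 (without Old5) to 4. The 13 further genes at that threshold became 6 by the t-test, 22 with array weights, 4 with either floor, and 5 to 11 with an array left out. The 4 called by the criteria of the study became 2 with the dim filter, 2 with the floor at log2 4 and 1 with that at log2 6, where dim values were removed or levelled, and 3 with averaged probe sets. The cause of the other shifts was not tested. No paired analysis was possible because the old columns carry no replicate number of the labels. The number of arrays, 3 per age, and the spread of each probe set limit the precision.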
